A study of Homo sapiens with 12 samples.

Results

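The regions described here are the bright transcript clusters without a gene symbol: gene-level clusters of the Affymetrix Human Transcriptome Array 2.0 to which the platform annotation gives no symbol, and whose mean log2 signal over the 3 control siRNA samples was at least 8. There were 4338 of them, out of 42204 clusters without a symbol and 67528 transcript clusters in all. The cells were SH-SY5Y, an established human neuroblastoma line, electroporated with an siRNA against MATR3 (Matrin3) or with a negative control siRNA, and RNA was taken 48 h later. Each group had 3 arrays, numbered 1 to 3. Separate cultures are not stated in the labels, and p-values therefore cover the variation among these arrays alone, part or all of which may be technical. The clusters were selected on their log2 signal in the control samples and on the absence of a symbol, so neither is a result, and TC05002648.hg.1 was included by name with its difference already known.

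MATR3 is a nuclear matrix protein with zinc fingers and RNA recognition motifs that binds DNA and RNA. It is known to repress the splicing of many exons through binding in the flanking introns. A transcript cluster is a set of probes that the array's designers grouped as one transcribed locus, and many such loci lie outside named genes: long non-coding transcripts, stretches within or beside a gene that the design kept apart, pseudogenes and copies of abundant small RNAs. Target was made from total RNA, so RNAs without a poly(A) tail could be measured too. A cluster that has no symbol here is unnamed in the annotation table used, which does not show that no gene is there. Its identifier carries a chromosome code, and for clusters with 1 symbol that code equalled the RefSeq chromosome (GRCh38.p14) in 20454 of 20515 cases (99.7%). No coordinates of the unnamed clusters were at hand, so they are placed below by chromosome code and by identifier order only.

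Markers and the targeted gene check the labels. Of 10 neuroblastoma markers, 8 were measured as single-gene clusters and 7 of them were at 8 or above in control cells, the exception being TH (4.66), the enzyme that starts catecholamine synthesis. All 5 markers of other cell types were between 4.03 and 5.27. The cluster annotated to MATR3 and the non-coding gene SNHG4 read 11.21, 10.53 and 10.52 in MATR3 siRNA cells, against 12.25, 11.75 and 11.68 in control cells. Its difference was -1.14 ± 0.09 (mean and SD of the 3 pairs of equal replicate number). All values are the deposited log2 signals. They reached 19.93, above the 16 bits of a scanner, so the scale holds a transformation that the sources used here do not give, and a log2 difference need not be a plain fold. In bulk RNA, fewer cells with a transcript and less of it per cell cannot be told apart.

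Replicate 1 stood apart in both groups. Across all clusters, its arrays correlated at 0.996 with each other and at 0.981 to 0.986 with the others, which correlated at 0.99 or more among themselves. Over the unnamed clusters, array medians were 10.58, 9.85 and 9.81 in MATR3 siRNA cells and 10.64, 9.75 and 9.71 in control cells. In 3586 of the 4338, replicate 1 was the highest array of both groups. The same held for 26283 of the 33782 clusters that entered the fit. It also held for 6700 of the 6904 clusters with 1 symbol at the same brightness, so it was not particular to unnamed clusters. Over all 4338, replicate 1 minus the mean of replicates 2 and 3 had a median of 0.67 in MATR3 siRNA cells and 0.79 in control cells. The excess shrank with brightness, and the 180 clusters at 16 or above had medians of -0.08 in MATR3 siRNA cells and -0.10 in control cells. Differences within a replicate number were steadier than levels within a group: their SD had a median of 0.21, against 0.42 for MATR3 siRNA levels and 0.47 for control levels. Still, pair 1 went against both other pairs in 1257 unnamed clusters (29.0%), near the 26.9% of all 33782 clusters that entered the fit. Of the 6904 clusters with 1 symbol and a control mean of at least 8, 17.4% did so. The share was 32.9% in the dimmer unnamed clusters that entered the fit and 39.1% in the equally bright small RNA genes.

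**Figure D1:**
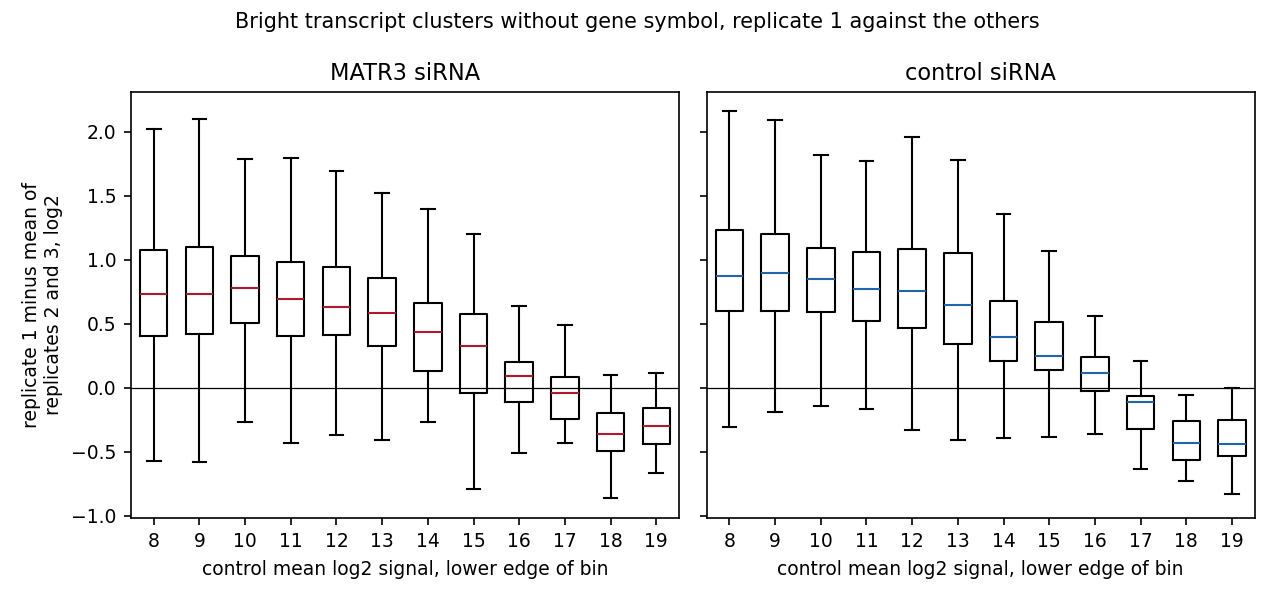
Box plots of replicate 1 minus the mean of replicates 2 and 3 (y axis, log2) in bins of control mean (x axis, log2), for MATR3 siRNA on the left and control siRNA on the right, over the 4338 unnamed clusters. Lines mark medians, boxes quartiles, and whiskers the farthest value within 1.5 box heights; replicate 1 is higher for most of the range and lower in the brightest bins of both groups.

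By the rule, the other 37866 unnamed clusters were dimmer than 8. The control means of the 4338 clusters ran from that threshold to 19.90 with a median of 10.02. There were 2150 of them between 8 and 10, 1157 between 10 and 12, 595 between 12 and 14, 256 between 14 and 16, and 180 at 16 or above. At the lower edge, TC02000320.hg.1 and TC09001216.hg.1 were the last inside, and TC06000843.hg.1 and TC06000874.hg.1 the first outside. TC02000320.hg.1 read 8.65, 6.74 and 7.23 in MATR3 siRNA cells and 8.43, 7.93 and 7.64 in control cells. TC09001216.hg.1 read 8.14, 8.71 and 8.11 in MATR3 siRNA cells and 8.28, 7.64 and 8.08 in control cells. Outside, TC06000843.hg.1 read 8.82, 7.89 and 7.82 in MATR3 siRNA cells and 9.03, 7.49 and 7.47 in control cells, and TC06000874.hg.1 differed by 0.31 ± 0.29. In all of these borderline clusters the groups overlapped.

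The brightest unnamed clusters stood at the top of the scale in both groups. TC01002863.hg.1, on chromosome 1 between the clusters of HFM1, a meiotic DNA helicase, and TGFBR3, a co-receptor for TGF-beta, read 19.91, 19.82 and 19.77 in MATR3 siRNA cells and 19.90, 19.93 and 19.88 in control cells. Of the exon-level probe sets with its values, the annotated ones carry the symbol UBXN7, a gene for a ubiquitin-binding adaptor protein. They were matched on values alone, without requiring the cluster's chromosome code, so the symbol does not identify the cluster. TC02000740.hg.1, TC04000491.hg.1, TC04001102.hg.1 and TC07001932.hg.1 all read 19.87, 19.82 and 19.77 in MATR3 siRNA cells and 19.88, 19.93 and 19.88 in control cells, although their codes name 3 chromosomes. A cluster on chromosome 9 had the same values and tied with them for the fifth place. TC01002863.hg.1 differed by -0.07 ± 0.07, and the 5 clusters that share values by -0.08 ± 0.06. All 22 clusters with the mitochondrial code were bright, with a median control level of 19.55. Their differences had a median of -0.01 and ran from -0.08 to 0.56. Near this ceiling a difference in RNA amount may not register as a difference in signal, which was not tested.

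By chromosome, unnamed bright clusters were most frequent on chromosomes 15, 16 and 7, where they made up 10.8%, 9.82% and 9.76% of a code's clusters. These shares count clusters with identical values separately. Such sets held, for example, 12 clusters on chromosome 15, 11 on chromosome 16 and 9 on chromosome 7. Shares over distinct values were not computed. Chromosome 13 had the lowest share, 4.14%, and chromosome 1 the largest number, 487. Chromosome X held 172. A further 48 of 1540 clusters with haplotype or unplaced codes were bright. Median differences between the groups on the autosomes and X ran from -0.02 on chromosome 15 to 0.08 on chromosomes 9, 11 and X. The 48 haplotype or unplaced clusters had a median of 0.18, with 34 above 0 and 14 below. Some of these 48 also share their values with other clusters.

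Many of these clusters repeat one another's measurement. Of the 4338, 457 (10.5%) had exactly the same 6 values, to 2 decimals, as at least 1 other cluster. Among the 6904 equally bright clusters with 1 symbol, 123 (1.78%) did. The 4338 clusters thus held 3987 distinct sets of values, and clusters that share a set are 1 measurement. Some large groups stayed on 1 chromosome. The 11 clusters that share the values of TC16000232.hg.1, all with code 16, read 13.59, 12.84 and 13.11 in MATR3 siRNA cells and 13.94, 12.69 and 12.77 in control cells. On chromosome 7, the 8 clusters that share the values of TC07000429.hg.1 read 14.21, 11.65 and 11.51 in MATR3 siRNA cells and 14.39, 12.72 and 12.97 in control cells. Their pair differences were -0.18, -1.07 and -1.46, so replicate 1 showed little of what the other pairs showed. Others spanned chromosomes. The 8 clusters that share the values of TC01003482.hg.1 carried 6 chromosome codes, with pair differences of -1.19, -0.41 and -0.45, and the 10 that share those of TC02000811.hg.1 carried 3 codes, with pair differences of -0.72, 0.65 and 0.79. Whether the probes of such clusters match several genomic copies was not tested.

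The exon-level table was searched for probe sets with the values of these clusters. Of the 4338 clusters, 1932 (44.5%) had the same 6 values as at least 1 exon-level probe set. In every case at least 1 such probe set had the same chromosome code, so the cluster's gene-level value adds nothing to it. Among equally bright clusters with 1 symbol, 412 (5.97%) had the values of a probe set. In 37 cases the matching probe sets carried a gene symbol, and in 7 cases exactly 1. These were MIR548W for TC01000083.hg.1, SDHDP1 for TC01000321.hg.1, UBXN7 for TC01002863.hg.1, RNU1-10P for TC01003143.hg.1, and MIR548U for TC01001159.hg.1, TC01001170.hg.1 and TC06002038.hg.1. A probe set with a symbol was not required to have the cluster's chromosome code. The symbols are thus matches of values, and whether they name the clusters was not tested. SDHDP1 is a pseudogene of a succinate dehydrogenase subunit, RNU1-10P a pseudogene of the U1 spliceosomal RNA, and the MIR548 genes belong to a large microRNA family. TC01003143.hg.1 read 16.30, 16.01 and 16.02 in MATR3 siRNA cells and 16.81, 16.17 and 16.03 in control cells, a difference of -0.23 ± 0.26. The other 6 differed by -0.31 ± 0.28 (TC06002038.hg.1) to 0.07 ± 0.20 (TC01000321.hg.1).

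Taken over all 4338 clusters, the groups differed little. The mean pair difference had a median of 0.04 with quartiles of -0.11 and 0.19, and 2499 clusters lay above 0, 1818 below and 21 at 0. The 33782 clusters that entered the fit, those with a mean over the 6 arrays at or above the median of all clusters, had the same median of 0.04, as had the 6904 equally bright clusters with 1 symbol. The differences of unnamed clusters were spread more widely. Within 0.5 of no difference lay 91.0% of them, against 97.7% of the equally bright clusters with 1 symbol and 95.9% of all clusters fitted. With unnamed clusters of the same values counted once, their share was 93.5%. The SD of the 3 pair differences had a median of 0.21 in unnamed clusters and 0.11 in the clusters with 1 symbol. The histograms of differences and of their spread show both. Small RNA genes of the same brightness (253 clusters with 1 symbol) had a median difference of -0.03 and a median pair SD of 0.35, and the 28 histone gene clusters 0.08 and 0.17.

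**Figure D2:**
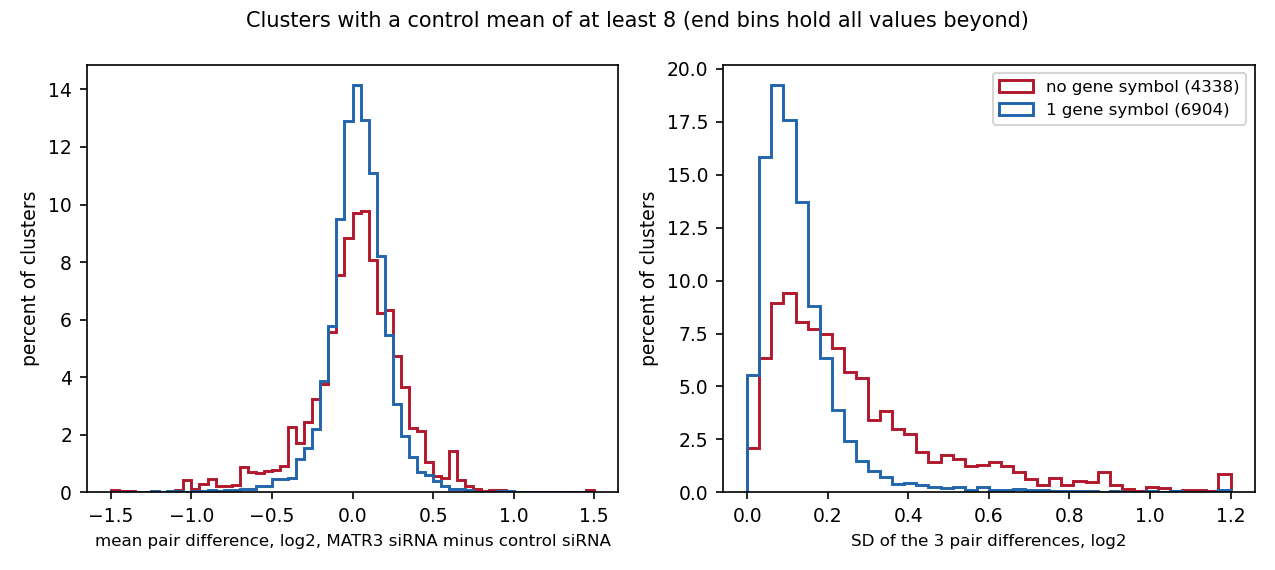
Left, mean difference between MATR3 siRNA and control siRNA over the 3 pairs of equal replicate number (x axis, log2) and right, the SD of those 3 differences (x axis, log2), each as the percent of clusters per bin (y axis). Red lines are the 4338 bright clusters without a symbol and blue lines the 6904 equally bright clusters with 1 symbol; both centre near 0.04, while the median SD is 0.21 in red and 0.11 in blue.

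In the limma fit over all 33782 clusters, none of the 4338 unnamed clusters reached an adjusted p under 0.05 (percent called 0 among all clusters), and their lowest adjusted p was 0.519. At an unadjusted p under 0.05, 74 did, or 1.71%, against 0.935% of all clusters fitted. With the replicate number as a block none was called either, with 815 (18.8%) at an unadjusted p under 0.05, against 4482 (13.3%) of all clusters fitted, and a lowest adjusted p of 0.263. The count depended on the weighting of the arrays. With limma's array weights, which gave those arrays 0.103 in MATR3 siRNA cells and 0.0898 in control cells, 641 unnamed clusters were called (14.8%, against 9.45% of all clusters), 441 higher (7.27% of all clusters were) and 200 lower (2.19%). That weighting rests the comparison almost wholly on the other 4 arrays. Their weights were unequal too, from 1.96 for MATR3 siRNA replicate 2 to 6.74 for control siRNA replicate 2. When the replicate 1 array of either group was left out instead, no unnamed cluster was called.

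In 113 unnamed clusters (2.60%, against 2.33% of all clusters fitted) every MATR3 siRNA value lay above every control value. In 79 (1.82%, against 1.07%) every MATR3 siRNA value lay below. Of equally bright clusters with 1 symbol, 1.06% and 0.449% did. Counting clusters with the same values once left 97 higher (2.43%) and 57 lower (1.43%). This split depended on the scaling of the arrays: 58.9% of the clusters without overlap were higher on the deposited values, 45.5% after quantile normalization (260 higher, 312 lower, against backgrounds of 5.78% and 6.57%) and 40.5% after centring each array on its median (120 higher, 176 lower, against 2.42% and 3.59%). No direction can therefore be given for the unnamed clusters as a set. In all 3 pairs 1003 unnamed clusters were higher and 654 lower (38.2% together), beside 22.5% and 13.5% of all clusters (36.0% together). With fewer arrays separation is easier. Without control siRNA replicate 1 the share that was higher was 36.2%, against 33.3% of all clusters fitted, and without MATR3 siRNA replicate 1 the share that was lower was 19.5%, against 16.4%.

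Larger differences that held in every pair were few. At least 1.5-fold (0.585 on the log2 scale) in all 3 pairs were 10 unnamed clusters higher (0.231%, against 0.172% of all clusters) and 24 lower (0.553%, against 0.255%). Equally bright clusters with 1 symbol gave 14 (0.203%) and 27 (0.391%). Without replicate 1 the shares were 4.03% higher and 1.96% lower, against 2.19% and 0.719% of all clusters. Without replicate 2 they were 0.484% and 2.01%, against 0.346% and 0.702%, and without replicate 3 they were 0.254% and 0.669%, against 0.26% and 0.388%. The excess of lower clusters also went with the choice on control signal: for the 4415 unnamed clusters with a mean of at least 8 in MATR3 siRNA cells instead, 18 were higher (0.408%) and 17 lower (0.385%), and for the 4385 with such a mean over all 6 arrays, 14 (0.319%) and 19 (0.433%). A mean difference of 1 or more was seen in 6 unnamed clusters (0.0858% of all clusters reached it), and of -1 or less in 32 (0.228% of all clusters). Those 32 held 16 distinct sets of values: a single set, shared by 14 clusters with codes 15 and Y, differed by -1.02 ± 1.48, an SD larger than the mean. Fold and brightness are shown together in the plot of difference against control level.

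**Figure D3:**
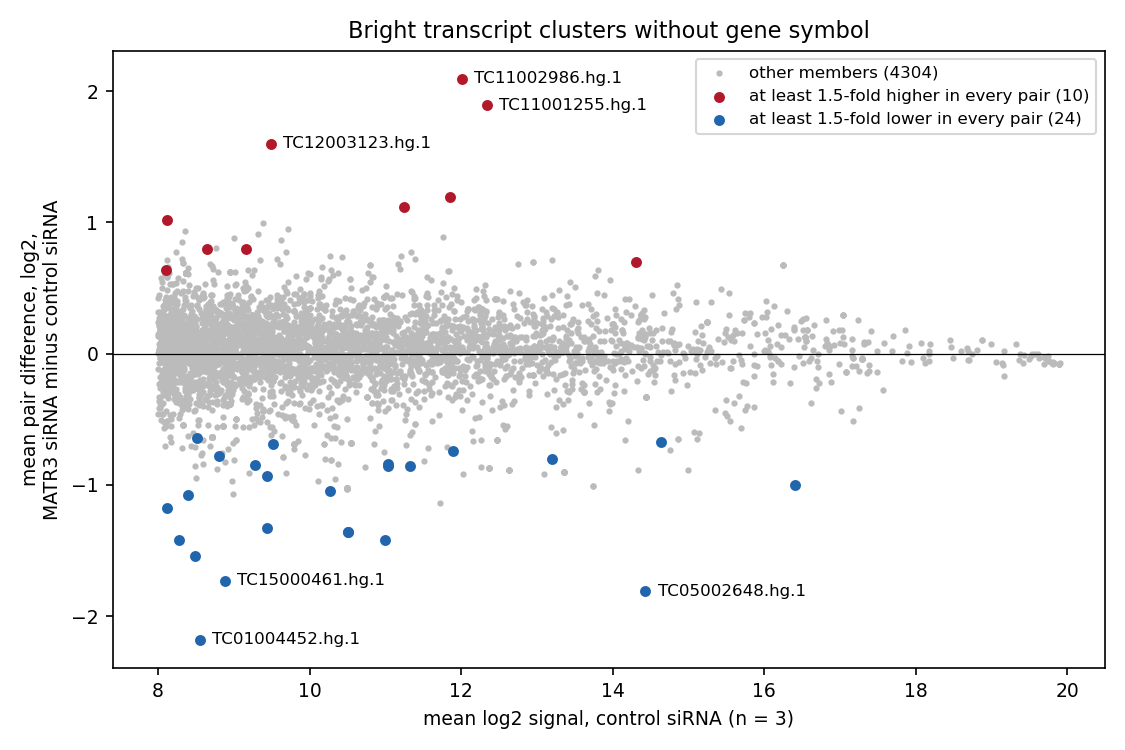
Mean pair difference between MATR3 siRNA and control siRNA (y axis, log2) against the mean control signal (x axis, log2, n = 3), 1 point per unnamed cluster. Red points are the 10 clusters at least 1.5-fold higher in every pair, blue points the 24 at least 1.5-fold lower, and grey points the others, which crowd around 0.

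TC05002648.hg.1, on chromosome 5, had the most even pair differences of the 10 lowest clusters described below. It read 13.03, 12.46 and 12.36 in MATR3 siRNA cells, against 14.76, 14.31 and 14.22 in control cells. The groups did not overlap, and the pairs differed by -1.73, -1.85 and -1.86, with a mean of -1.81 ± 0.07. Its limma adjusted p was 1 without a block and 0.263 with the replicate block. It was 0.0395 with replicate 1 against replicates 2 and 3 as a block, the array set block (0.00296% of all clusters called), and 0.0142 after quantile normalization (also 0.00296%). With the array set block and any single array left out no unnamed cluster was called, with lowest adjusted p from 0.102 to 0.464. Because the cluster was included for its difference, these values are descriptions and support nothing. The clusters next to it did not share the difference: the 5 before and the 5 after it in identifier order differed by -0.13 to 0.27, with control levels of 3.85 to 8.39.

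The probe sets of TC05002648.hg.1 are not named in the files. Placing probe sets in clusters by identifier order put 92.2% of annotated probe sets (26318 of 28552) in a cluster with their own symbol, over 1616 clusters with 1 symbol, and gave TC05002648.hg.1 a run of 25. The difference lay in a continuous stretch of that run. The 16 probe sets that differed by -1.5 or less were exactly those from order 9 to order 24. They differed by -2.83 to -1.54, with a median of -2.24 and control levels of 13.47 to 17.39, and none had overlapping groups. At order 14, the brightest probe set read 15.41, 15.25 and 15.11 in MATR3 siRNA cells and 17.46, 17.44 and 17.27 in control cells. At order 8, just before the stretch, a probe set read 8.99, 8.67 and 8.87 in MATR3 siRNA cells and 9.03, 8.83 and 8.54 in control cells, with overlapping groups. The 9 probe sets outside the stretch differed by -1.17 to 0.77 and were dimmer, with control levels of 3.27 to 11.45. Not all of them overlapped. At order 6, MATR3 siRNA cells read higher in every pair without overlap: 10.93, 11.14 and 10.80, against 10.30, 10.01 and 10.24 in control cells. At order 3 they read lower without overlap, with a difference of -0.85 ± 0.81. The plot of its probe sets shows the step.

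For scale, 41 of the 83 exon probe sets annotated to MATR3 had a control level of at least 12, and 35 of these differed by -1.5 or less, with a median of -2.24 and a range of -3.66 to -1.82. Both sets were picked by the same limit on the difference, so their medians are descriptions. None of the 25 probe sets of TC05002648.hg.1 had the values of another probe set. MATR3 is itself on chromosome 5, and TC05002648.hg.1 carries the same code. Whether the cluster is part of the MATR3 locus was not tested, since no coordinates were used. Its nearest named clusters in identifier order, those of TRIM52 and KIF2A, were 478 and 745 clusters away, so its place in that order names no neighbouring gene.

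**Figure D4:**
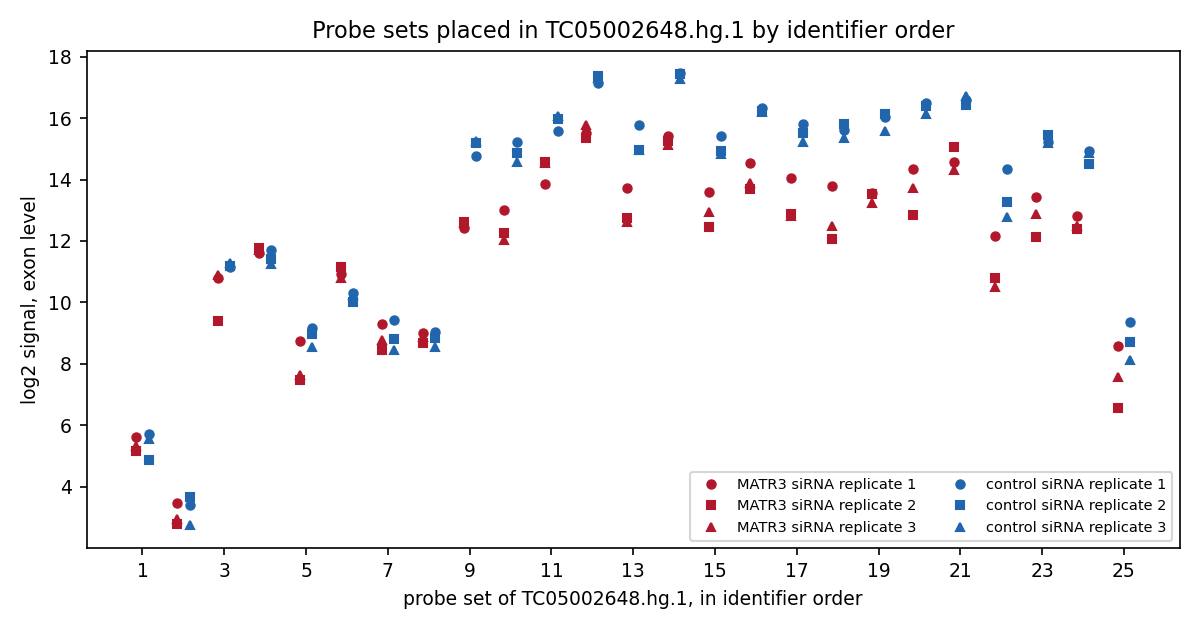
Log2 exon-level signal (y axis) of the 25 probe sets placed in TC05002648.hg.1 by identifier order (x axis), with MATR3 siRNA in red on the left and control siRNA in blue on the right of each position, and 1 symbol shape per replicate. From order 9 to order 24 every MATR3 siRNA value lies below every control value.

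Among the 10 highest differences with the same sign in every pair, 3 stood out. TC11002986.hg.1, on chromosome 11, read 14.14, 13.90 and 14.27 in MATR3 siRNA cells, against 12.22, 11.94 and 11.87 in control cells, a difference of 2.09 ± 0.27. TC11001255.hg.1, also on chromosome 11, read 14.46, 13.88 and 14.36 in MATR3 siRNA cells, against 12.60, 12.25 and 12.18 in control cells, a difference of 1.89 ± 0.28. TC12003123.hg.1, on chromosome 12, read 11.57, 10.92 and 10.77 in MATR3 siRNA cells, against 9.84, 9.41 and 9.22 in control cells, a difference of 1.60 ± 0.12. In all of them the groups were far apart beside their replicate spread. With quantile normalization and the array set block together, TC11002986.hg.1 was called (2.04, adjusted p of 0.0455) along with TC05002648.hg.1 (adjusted p of 0.0199); 0.00888% of all clusters were.

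Both chromosome 11 clusters had a neighbour that differed in the same direction. TC11002985.hg.1, next to TC11002986.hg.1 and dimmer, averaged 8.07 in MATR3 siRNA cells and 6.48 in control cells, a difference of 1.59 ± 0.48. TC11001254.hg.1, next to TC11001255.hg.1, averaged 8.38 in MATR3 siRNA cells and 6.84 in control cells, a difference of 1.54 ± 0.51. TC11001255.hg.1 lay among named clusters, with CHID1, which encodes a chitinase-like protein, before it (0.39) and MUC6, a gastric mucin gene, after it (0.12). Both named neighbours differed by far less than the unnamed clusters between them.

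The other 7 of the 10 highest ran from 0.88 to 1.19. TC08002271.hg.1 read 12.79, 12.11 and 12.20 in MATR3 siRNA cells, against 11.62, 11.00 and 11.12 in control cells, a difference of 1.12 ± 0.05 and the most even of the 10. TC07002893.hg.1 differed by 1.19 ± 0.34, TC06002402.hg.1 by 1.02 ± 0.16 and TC07002567.hg.1 by 0.89 ± 0.32. Their groups did not overlap. TC03002752.hg.1 (0.99 ± 0.70) and TC01004231.hg.1 (0.91 ± 0.49) were less even, and TC01004011.hg.1, between the clusters of ZP4, an egg coat glycoprotein, and CHRM3-AS2, an antisense RNA, had overlapping groups (0.88 ± 0.39). Over the 10, the limma adjusted p ran from 0.519 to 1 without a block and from 0.27 to 0.33 with the replicate block, so none was called in either. The array set block gave 0.0547 to 0.287, and array weights called 9 of them.

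Among the 10 lowest, TC01004452.hg.1 on chromosome 1 had the largest difference. It read 6.78, 5.99 and 6.35 in MATR3 siRNA cells, against 8.80, 8.37 and 8.49 in control cells, a difference of -2.18 ± 0.18. This cluster had the values of a single exon-level probe set, and its identifier neighbours differed by 0.01 and 0.18. TC02001272.hg.1, on chromosome 2, read 10.24, 9.54 and 8.94 in MATR3 siRNA cells, against 11.97, 10.28 and 10.74 in control cells, a difference of -1.42 ± 0.59. It lay between XRCC5, which encodes the Ku80 subunit of the DNA end-joining machinery and differed by 0.13 ± 0.05, and the long non-coding RNA gene LINC01963, which differed by -1.23 ± 0.61. Its value was thus near that of its non-coding neighbour and far from that of XRCC5.

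TC01000220.hg.1 and TC01002270.hg.1, on chromosome 1, shared 1 set of values: 9.42, 9.01 and 8.99 in MATR3 siRNA cells, against 11.16, 10.27 and 10.08 in control cells, a difference of -1.36 ± 0.34. The cluster next to each, TC01000221.hg.1 and TC01002269.hg.1, also shared 1 set of values and averaged 12.73 in MATR3 siRNA cells and 13.74 in control cells, a difference of -1.01 ± 0.68. On the other side of TC01002270.hg.1, the gene NBPF1, a member of a repeated primate gene family, differed by 0.26 ± 0.09. TC02003815.hg.1 on chromosome 2 read 8.64, 7.83 and 7.87 in MATR3 siRNA cells, against 10.42, 8.88 and 9.02 in control cells (-1.33 ± 0.40), and its neighbour TC02003816.hg.1 differed by -0.95 ± 0.60. TC11003001.hg.1 differed by -1.18 ± 0.13 with no overlap.

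Some of the lowest values rested on little. TC15000461.hg.1, next to FOXB1, a forkhead transcription factor gene, read 8.32, 5.26 and 7.88 in MATR3 siRNA cells, against 8.98, 8.76 and 8.91 in control cells. Its mean of -1.73 ± 1.54 was set by replicate 2, where the pair differed by -3.50. TC11002593.hg.1 (-1.54 ± 0.64) and TC18000764.hg.1 (-1.42 ± 0.57) had overlapping groups. Over the 10 lowest, the limma adjusted p ran from 0.719 to 1 without a block and from 0.263 to 0.368 with the replicate block. The array set block gave 0.0395 to 0.334, with TC05002648.hg.1 called alone, and array weights called 9.

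**Figure D5:**
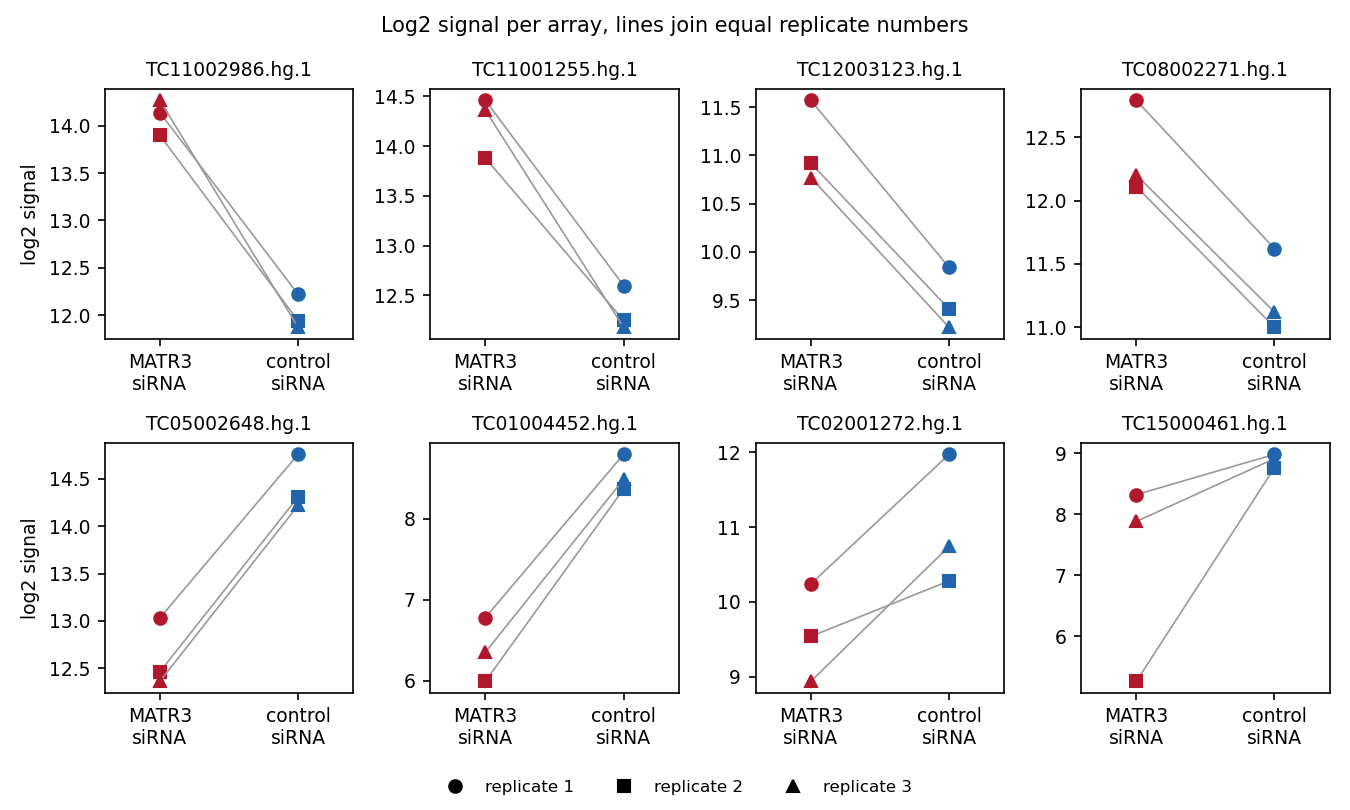
Log2 signal (y axis of each panel, not starting at 0) of 8 unnamed clusters in each array, with MATR3 siRNA in red on the left and control siRNA in blue on the right; lines join equal replicate numbers. The upper 4 clusters were higher and the lower 4 lower in every pair, and in TC15000461.hg.1 the low value is replicate 2 alone.

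The 34 clusters at least 1.5-fold different in every pair included some outside both sets of 10. TC08000801.hg.1, picked out after its values were seen, was the only one with a control level above 16: it read 15.14, 15.63 and 15.47 in MATR3 siRNA cells, against 16.54, 16.26 and 16.43 in control cells, a difference of -1.0 ± 0.39. TC17002307.hg.1, picked in the same way, was the brightest of the 10 that were higher, with 15.31, 14.82 and 14.90 in MATR3 siRNA cells, against 14.69, 14.08 and 14.16 in control cells (0.70 ± 0.07). Of the 34, 8 had a next cluster in identifier order that was at least 1.5-fold different on average in the same direction, out of 68 next clusters. Those 8 include TC01000220.hg.1 and TC01002270.hg.1, which with their neighbours repeat 1 measurement. For comparison, 2.55% of all clusters fitted were at least 1.5-fold different on average in either direction. The next clusters were taken whether or not they were bright enough for the fit, so the 2 shares have unlike bases. The neighbours were read only after the 34 had been chosen. The others of the 34 had no such neighbour.

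The unnamed clusters were also split by position within the identifier lists. On each chromosome the identifiers hold 1 long stretch without any symbol, and 2231 of the unnamed bright clusters lay in those stretches while 2037 lay among clusters with symbols. The median difference was 0.04 in both. Spread was not alike: the pair SD had a median of 0.18 in the stretches and 0.27 among named clusters. In the stretches, 9 clusters (0.403%) were at least 1.5-fold higher and 14 (0.628%) lower in every pair. Among named clusters 1 (0.0491%) was higher and 10 (0.491%) lower. Of all clusters fitted, 0.172% were higher and 0.255% lower. These counts describe 1 split of the identifiers and carry no test.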

How the data were processed

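The authors deposited log2 signals, 1 gene-level and 1 exon-level table of the same 6 arrays. Per the submitters' processing notes the deposited values come from Affymetrix Expression Console and RMA; versions, order of steps and genome build are not given in the sources used here. Nothing was rescaled. Arrays give no read depth; with 6 of them, their number sets the precision.

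Clusters with a mean over the 6 arrays at or above the median (33782 of 67528) were fitted with limma 3.58.1 (R 4.3.3; lmFit and eBayes, two-sided), MATR3 siRNA minus control siRNA, with Benjamini-Hochberg adjustment over all 33782 and a threshold of 0.05. Each ± in the text is an SD over 3 pairs unless stated.

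Equal replicate numbers were treated as pairs, which the labels do not state. They deviated together from their group means (correlations of 0.696, 0.327 and 0.527 for numbers 1, 2 and 3). The offset shared by the replicate 1 arrays enters all of these correlations, and unequal numbers were not correlated. Whether number 2 pairs with 2 and number 3 with 3 was therefore not tested. An exact permutation test of 3 against 3 cannot go below a two-sided p of 0.1, so none was run. The 4338 clusters, the lists and TC05002648.hg.1 were chosen with earlier results of these data known. Clusters named were TC05002648.hg.1, the 5 brightest, the 10 highest and 10 lowest mean pair differences with the same sign in every pair, the nearest 2 on each side of the brightness threshold, and any called in a setting with 5 or fewer calls. Alternatives were another scaling, filter, block, weighting, brightness threshold or choice of members, and leaving out each replicate. Symbols came from the platform annotation, updated through RefSeq, and probe sets were placed in clusters by identifier order. Cluster sequences and coordinates were not used here.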

Additional observations from a re-analysis of the deposited data

How the results depend on the processing

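The limma count of 0 unnamed clusters called was also 0 with the replicate block, with median centring, with trend and robust eBayes, without the filter on dim clusters or with a stricter one, over clusters without a symbol alone, and without any single replicate. It was 1 with the array set block, 1 with quantile normalization, 2 with both together, and 641 with array weights. With the array set block and any single replicate left out, an alternative chosen after seeing the data, it was 0, with lowest adjusted p from 0.102 to 0.464. The share without overlap that was higher, 2.60%, was 5.99% with quantile normalization and ranged from 3.09% to 36.2% without a single replicate, the top without control siRNA replicate 1 (33.3% of all clusters fitted). The share that was lower, 1.82%, was 7.19% with quantile normalization, 4.06% with median centring, and ranged from 1.96% to 19.5% without a single replicate, the top without MATR3 siRNA replicate 1 (16.4% of all clusters fitted). The share at least 1.5-fold higher in every pair, 0.231%, was 0.408% for clusters chosen on the MATR3 siRNA samples and 0.254% to 4.03% without a single replicate; the share lower, 0.553%, was 0.669% to 2.01%. The median difference of 0.04 was -0.03 with median centring, as was that of all clusters, and 0.03 to 0.07 without a single replicate. TC05002648.hg.1, at -1.81, was -1.89 with median centring and -2.02 to -1.65 without a single replicate. The other 26 named clusters kept their direction in all 416 alternative values, and 18 were called with array weights. The highest and lowest of them had been picked for the same sign in every pair. Blocks, filters, and trend and robust eBayes leave the difference itself unchanged. The kept direction was thus largely set in advance and is no support. What made the arrays of replicate 1 differ was not tested.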

Other observations

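Unnamed clusters also crossed the brightness threshold between the groups. Of the 37866 below 8 in control cells, 210 were at 8 or above in MATR3 siRNA cells, and 8 of these were at least 1.5-fold higher in every pair. TC02003717.hg.1, the largest, read 8.90, 8.38 and 8.97 in MATR3 siRNA cells, against 7.55, 6.49 and 6.30 in control cells, a difference of 1.97 ± 0.66. TC08000507.hg.1 read 8.02, 8.32 and 8.52 in MATR3 siRNA cells, against 7.07, 6.24 and 6.05 in control cells, a difference of 1.83 ± 0.79. The groups did not overlap in either cluster. In the other direction, 133 of the 4338 bright clusters were below 8 in MATR3 siRNA cells, and 7 of them were at least 1.5-fold lower in every pair. Near 8 a small difference is enough to cross, and 738 of the 4338 had a control mean below 8.5. No share over all clusters was computed for crossing, so these counts are no result about the unnamed clusters.

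Among all 37866 unnamed clusters below the threshold, 34 were at least 1.5-fold higher and 34 lower in every pair. On each side several of the 34 share 1 set of values and are 1 measurement. Of the dimmer unnamed clusters that entered the fit, 0.144% were higher and 0.205% lower, against 0.172% and 0.255% of all clusters fitted. The lowest was TC01006036.hg.1, which read 6.27, 5.34 and 5.72 in MATR3 siRNA cells, against 7.82, 7.41 and 7.22 in control cells, a difference of -1.71 ± 0.32. These clusters were picked by their differences, so the values are a description with no test.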
